A study of Xenopus tropicalis with 12 samples.

Results

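A total of 96 genes of tadpole intestine were at least about 2-fold higher in both groups of libraries labelled T3 than in their controls, out of 19921 genes listed and 10677 with a group mean of at least 2 CPM, the count scaled to the effective library size. They were selected on 2 measured contrasts, T3WT over contWT and T3Homo over contHomo. The members are the genes whose highest group mean reached 2 CPM and whose log2 ratio of group means, with 0.5 CPM added to each mean, was at least 1 in both contrasts. The rises themselves are therefore a description and carry no test here.

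The libraries came from the intestine of Xenopus tropicalis tadpoles at stages labelled 52 to 54, wild type or TRα(-/-), offspring of the same parents. By the column labels, T3Homo is TRα(-/-) with 10 nM T3 for 18 h, T3WT is wild type with the same treatment, contHomo is TRα(-/-) without T3 and contWT is wild type without T3. Each group is 3 technical libraries of a single RNA pool from several tadpoles, so each p below sets a difference against repeat libraries of a pool and says nothing of how animals vary. In bulk RNA, more cells of a type and more RNA per cell cannot be told apart.

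The labels of 6 of the 12 libraries conflict. By the titles, the libraries in the T3WT columns are TRα(-/-) without T3 and those in the contHomo columns are wild type with T3. T3Homo and contWT have 1 identity under both. Read by the titles, the 96 genes are not raised by T3 in both genotypes but higher in TRα(-/-) than in wild type, both without T3 and with it. The deposited files pair no identifier with a gene name, so neither the deleted receptor gene nor a gene known to respond to T3 could be looked up to settle this, and the intestinal markers could not be checked. The groups are called by their column labels below.

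Thyroid hormone drives frog metamorphosis through nuclear receptors, TRα and TRβ, which bind DNA near their target genes as partners of the retinoid X receptor. Without hormone these receptors recruit corepressors and hold target genes down, and with hormone they recruit coactivators and raise them. In the tadpole intestine the hormone brings death of the larval epithelium and the rise of adult epithelial stem cells. By the column labels, the members rise with T3 both with and without TRα. Whether TRβ has a part in this was not tested.

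Library totals ranged from 40295245 to 44755390 counts in T3Homo, 34322099 to 38421597 in T3WT, 34837299 to 40715696 in contHomo and 35951142 to 38423895 in contWT. The T3WT libraries had TMM scaling factors of 1.21 to 1.22, against 0.913 to 0.957 in the other 9. They also had a count in more genes, 15236 to 15327 against 14751 to 14888. The part of this difference in the rises of T3WT was not tested. Scaled by total counts instead of TMM, T3WT over contWT had a median log2 fold change of 0.45 over all genes tested, against 0.05 with TMM.

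The 96 members made up 12.7% of the 754 genes that met the threshold in T3WT over contWT and 55.8% of the 172 that met it in T3Homo over contHomo. All 96 passed the filter on low counts, and all 96 were called higher in both contrasts by edgeR, at an adjusted p below 0.05 and a log2 fold change of at least 1. With glmTreat, which tests against that fold, 74 were called in T3Homo over contHomo and 93 in T3WT over contWT. Over all 13172 genes tested, glmTreat called 149 and 1034 higher in these contrasts. The background of such calls was 12.8% of the 13172 genes tested for T3WT over contWT and 2.77% for T3Homo over contHomo, and nothing is read from the members' share because the rule used these contrasts. The same fit called 223 genes higher in both. Of the 127 that are no members, 66 had no group mean of 2 CPM and 61 fell below the threshold once 0.5 CPM was added.

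On the scale of the rule, the members' log2 ratios ran from 1.0 to 9.93 with a median of 1.93 in T3WT over contWT. In T3Homo over contHomo they ran from 1.02 to 5.53 with a median of 1.30. Both ratios reached 2 in 17 members and 3 in 5 members. The smaller of the ratios was under 1.2 in 38 members, so many lie close to the threshold. Just inside it, ENSXETG00000000997 had ratios of 1.06 in T3Homo over contHomo and 1.0 in T3WT over contWT, and ENSXETG00000019424 had 1.04 and 1.01. Just outside, ENSXETG00000018586 had 1.36 and 0.998, and ENSXETG00000004315 had 1.44 and 0.998.

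**Figure D1:**
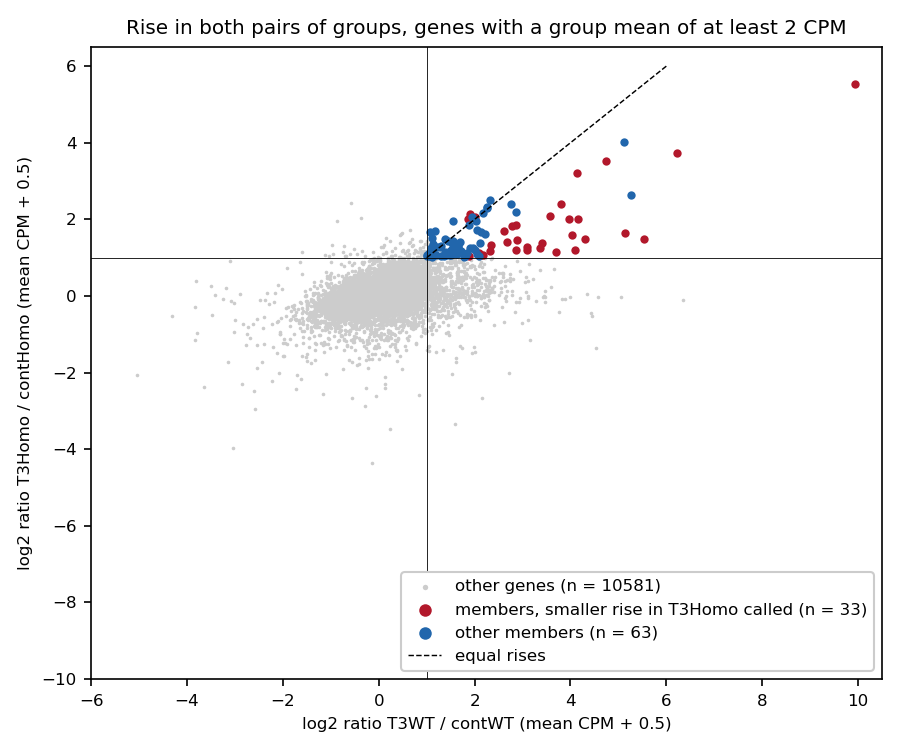
Log2 ratio of T3Homo to contHomo (vertical) against that of T3WT to contWT (horizontal), group means with 0.5 CPM added, for the 10677 genes with a group mean of at least 2 CPM. The 96 members fill the upper right corner by construction. The 33 whose smaller rise in T3Homo vs contHomo was called in the edgeR fit are red. Of the members, 73 lie under the dashed line of equal rises and 23 above it. The red members ENSXETG00000025667, ENSXETG00000025664 and ENSXETG00000031873 lie above it, because 0.5 CPM is added on the plotted scale.

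Most members were higher in T3WT than in T3Homo. The highest group mean was in T3WT for 75 members and in T3Homo for 21, and the lowest was in contWT for 63 and in contHomo for 34, with a member at 0 counts in both counted under each. The order T3WT, T3Homo, contHomo, contWT, from high to low, was the commonest and was found in 44 members. The rule puts T3WT above contWT and T3Homo above contHomo. The highest mean therefore had to be in a T3 group and the lowest in a control group. The next count is in part tied to the rule too, and its share among other genes was not counted. In 92 of the 96 both T3 groups lay above both control groups. In the other 4, the difference between Homo and WT libraries was larger than the rise: T3Homo and contHomo lay above T3WT in 2 members, and T3WT and contWT above T3Homo in 2.

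Median levels were 11.4 CPM in T3Homo, 16.9 CPM in T3WT, 4.08 CPM in contHomo and 3.34 CPM in contWT. A total of 63 members had at least 2 CPM in all 4 groups, so most were expressed in the control groups too. The share of other genes at that level was not counted. Another 15 members were under 1 CPM in both control groups. These 15 reached 0.889 to 13.0 CPM in T3Homo and 1.53 to 49.0 CPM in T3WT, and 13 of the 15 were higher in T3WT. Technical spread was small: the median coefficient of variation between the 3 libraries was 3.93% in T3Homo, 3.27% in T3WT, 6.62% in contHomo and 8.54% in contWT.

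**Figure D2:**
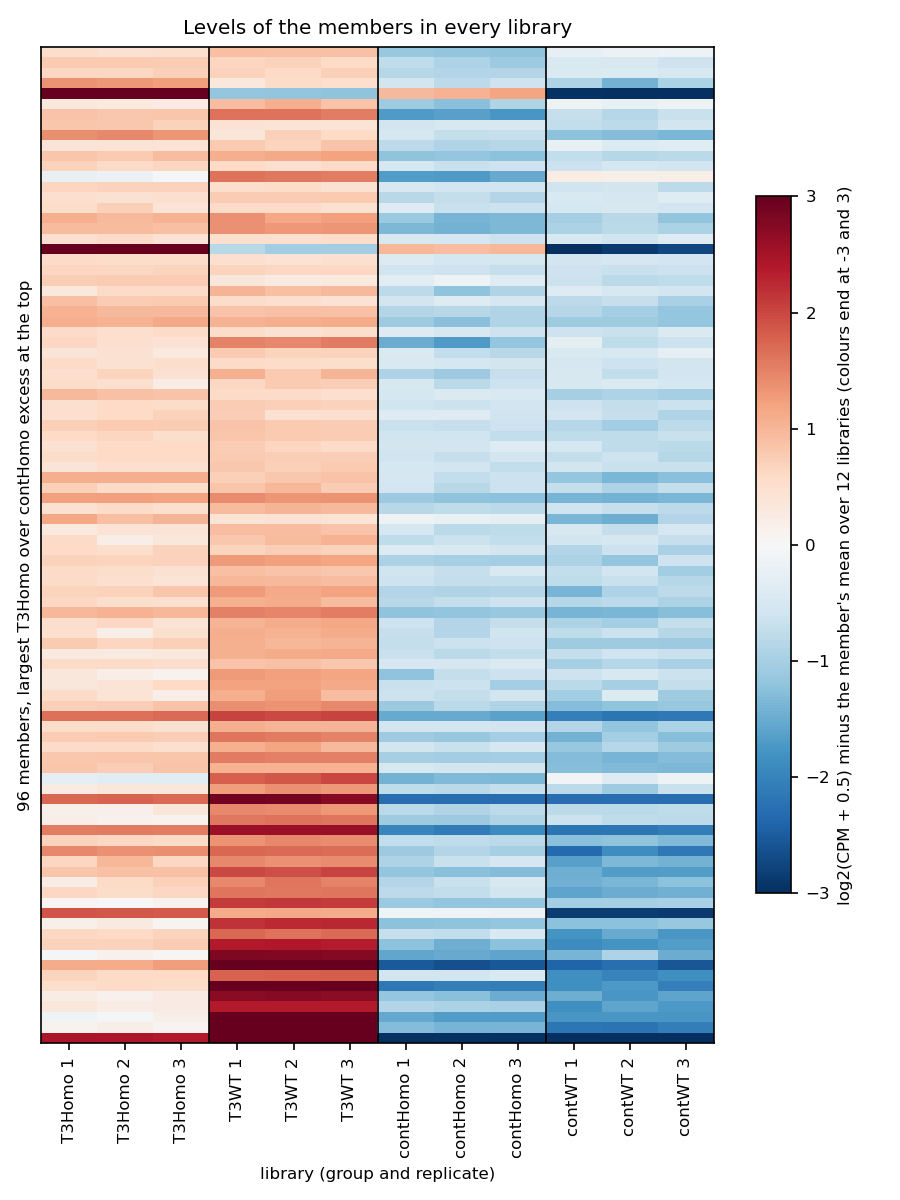
Level of each of the 96 members (rows) in each of the 12 libraries (columns), as log2(CPM + 0.5) minus the member's own mean, with members ordered by the T3Homo over contHomo ratio minus the T3WT over contWT ratio. The 3 libraries of a group look alike, and towards the bottom T3WT is far above T3Homo.

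Together the members took 0.473 ± 0.00588% of counts in T3Homo, 0.657 ± 0.00435% in T3WT, 0.126 ± 0.00120% in contHomo and 0.0665 ± 0.000806% in contWT (SD, n = 3 each). A single gene held much of this sum. ENSXETG00000000954 supplied 55.1% of the members' summed CPM in T3Homo, 30.1% in T3WT, 49.9% in contHomo and 14.3% in contWT. Without it, the sum was 2225 ± 19.1 CPM in T3Homo, 3768 ± 8.46 in T3WT, 681 ± 6.74 in contHomo and 617 ± 2.93 in contWT (SD, n = 3 each).

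ENSXETG00000000954 has 13 exons on the minus strand of scaffold GL173081.1, from 871398 to 877752, and was the most abundant member per kilobase of exon, at 1338 CPM per kb in T3Homo. It had 2769, 2722 and 2696 CPM in the T3Homo libraries and 684, 678 and 671 CPM in contHomo. In T3WT it had 1610, 1646 and 1612 CPM, against 104, 104 and 102 CPM in contWT. No 2 groups overlapped, and the order from high to low was T3Homo, T3WT, contHomo, contWT. The rise was 4.03-fold in T3Homo over contHomo and 15.7-fold in T3WT over contWT. T3Homo stood 1.68-fold above T3WT, and contHomo stood 6.56-fold above contWT, so the control groups lay further apart than the T3 groups.

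ENSXETG00000021140 had the largest ratios of all members with 0.5 CPM added to each mean, 5.53 in T3Homo over contHomo and 9.93 in T3WT over contWT. It has 8 exons on the plus strand of GL172931.1, from 1403566 to 1416939. Its levels were 102, 100.2 and 97.2 CPM in T3Homo and 1.62, 1.90 and 1.49 CPM in contHomo, and 749.6, 761 and 760.1 CPM in T3WT and 0.449, 0.200 and 0.183 CPM in contWT. The contWT values rest on 16, 7 and 6 counts. T3Homo was 59.8-fold above contHomo and T3WT was 2731-fold above contWT, and the T3Homo mean was 0.132 times that of T3WT.

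ENSXETG00000012944 came next by the smaller of its ratios with 0.5 CPM added, and was the 1 member without a single count in the 6 control libraries. Its 2 exons lie on GL173114.1 between 648500 and 685614, minus strand. It had 322, 323 and 286 counts in T3Homo, which is 7.52, 7.86 and 7.43 CPM, and 734, 815 and 718 counts in T3WT, which is 17.5, 17.4 and 15.8 CPM. Set against a floor of 3 counts over the control group, T3Homo was at least 271-fold higher than contHomo and T3WT at least 583-fold higher than contWT. Such floors cover counting error only.

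**Figure D3:**
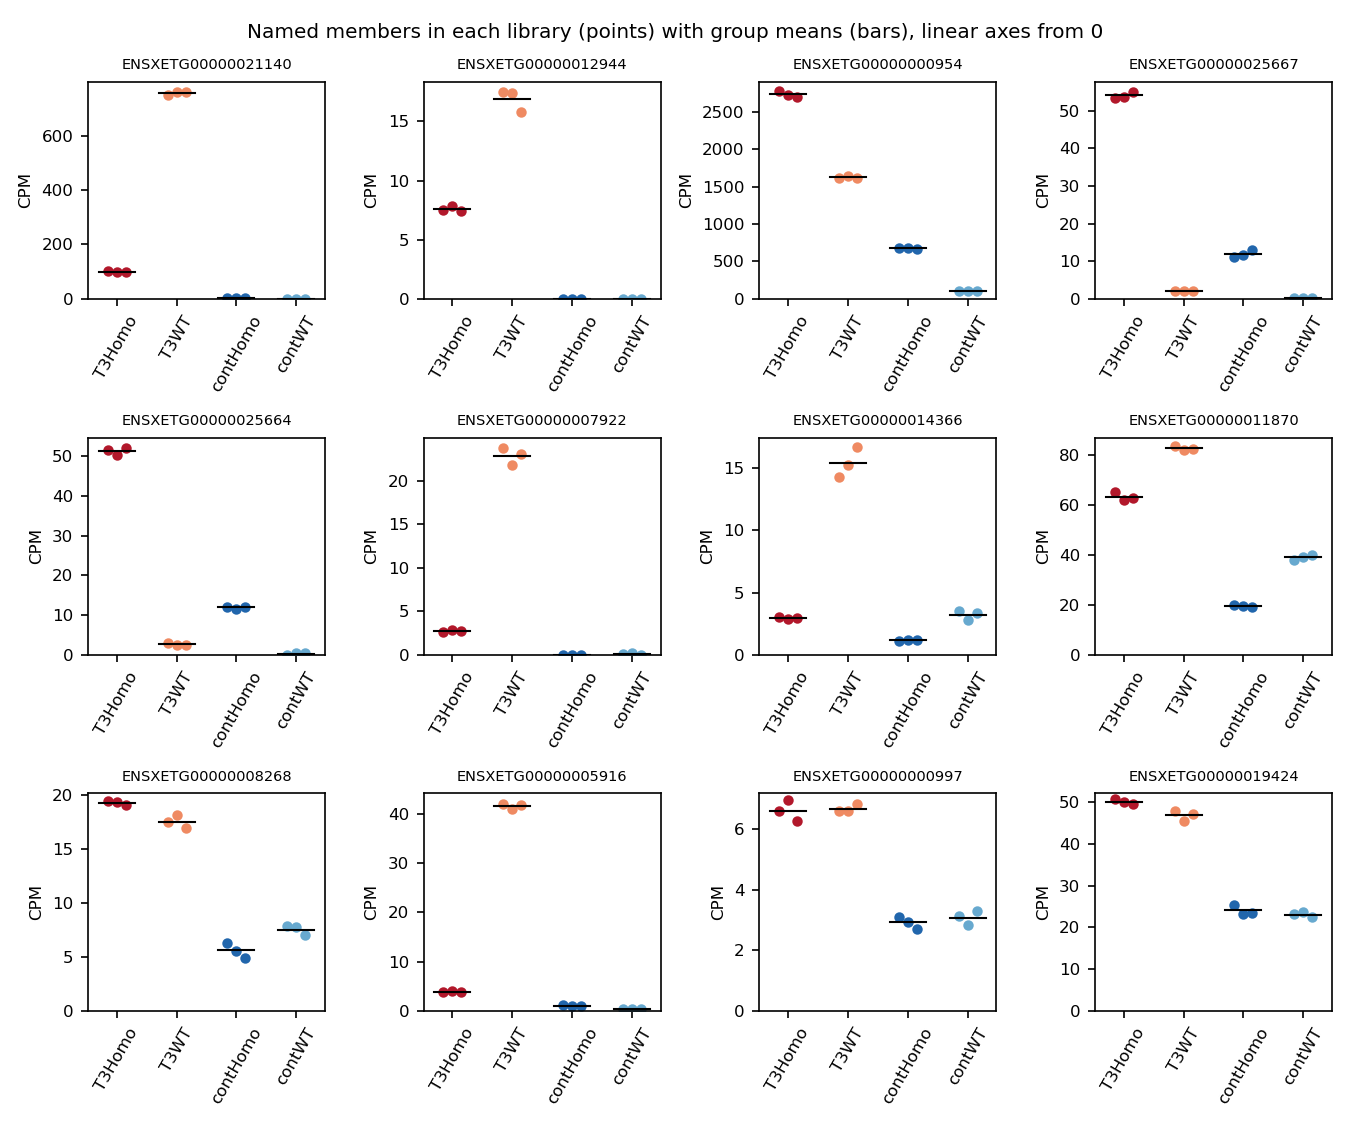
CPM of the 12 named members in every library (points) with group means (bars), on linear axes that start at 0. In the first panel the T3WT libraries lie near 757 CPM and the T3Homo libraries near 99.7 CPM, and in the last panel T3Homo and T3WT lie near 50.1 and 46.9 CPM.

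The ratio was smaller in T3Homo over contHomo than in T3WT over contWT for 73 members and larger for 23, and it was within 0.5 on the log2 scale for 48. It was smaller by over 1 in 28 members and larger by over 1 in 0. In the edgeR interaction, (T3Homo minus contHomo) minus (T3WT minus contWT), 33 members were called negative and 0 positive, where 12.4% of all genes tested were called negative and 3.24% positive. At an unadjusted p below 0.05 without the fold threshold, 64 were negative and 5 positive. The share of all genes at that threshold was not counted. DESeq2, run on the same counts, called 0 members positive, where it called 413 of the 13172 genes tested. Both terms were used by the rule, so these counts are given without a reading. The 33 had median ratios of 1.5 in T3Homo over contHomo and 3.09 in T3WT over contWT, and the other 63 had 1.27 and 1.54.

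With 0.5 CPM added, the widest gaps between the ratios were those of ENSXETG00000021140 and ENSXETG00000005916. ENSXETG00000005916, with 5 exons on the minus strand of GL172683.1 from 2331360 to 2342015, had 3.83, 4.09 and 3.79 CPM in T3Homo and 1.12, 1.04 and 1.03 CPM in contHomo. It had 42.1, 41.0 and 41.9 CPM in T3WT and 0.393, 0.370 and 0.457 CPM in contWT. The groups did not overlap, and T3WT was the 1 group above 5 CPM. Its rise was 3.66-fold in T3Homo over contHomo and 102-fold in T3WT over contWT, and its interaction log2 fold change was -4.82 ± 0.24 (SE). The most negative fitted interaction was that of ENSXETG00000031386, named after its values were seen, at -7.81 ± 1.51 (SE). It had 45, 47 and 54 counts in T3Homo and 3, 1 and 1 in contHomo, and 749, 786 and 754 in T3WT and 0 in each contWT library, so this value rests on the model's handling of 0 counts.

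At the other end, ENSXETG00000011870 and ENSXETG00000008268 had the largest excess of the T3Homo over contHomo ratio. ENSXETG00000011870, with 5 exons on the plus strand of GL173169.1 from 470848 to 477506, had 65.1, 62.1 and 62.8 CPM in T3Homo and 19.96, 19.6 and 19.3 CPM in contHomo. It had 83.8, 82.2 and 82.5 CPM in T3WT and 37.9, 39.4 and 40.1 CPM in contWT. The T3Homo libraries stayed below T3WT, and the larger ratio came with a contHomo level 0.501 times that of contWT. ENSXETG00000008268, with 16 exons on the plus strand of GL172761.1 from 214295 to 304788, averaged 19.3 ± 0.173 CPM in T3Homo and 5.61 ± 0.683 in contHomo, and 17.6 ± 0.605 CPM in T3WT and 7.54 ± 0.463 in contWT (SD, n = 3 each). Its T3 groups differed by a factor of 1.10.

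A contrast that the rule did not use is the difference between libraries labelled Homo and WT, averaged over both treatments: the mean of contHomo minus contWT and of T3Homo minus T3WT. With equal group sizes it is orthogonal on the log scale to both contrasts of the rule, but not to its minimum of 2 CPM. ENSXETG00000031873 reached that minimum only in T3Homo (3.09 CPM, against 1.53 in T3WT). ENSXETG00000021636 reached it only in T3WT (5.25 CPM, against 0.889 in T3Homo). The counts of calls below are therefore not wholly free of the rule. By the column labels this contrast is the mean effect of losing TRα, and by the titles it is the mean T3 response of the genotypes. Being a mean, it can be called though its differences are not both called. Of the 96 members, 4 were called higher in Homo and 10 lower (4.17% and 10.4%), where 1.28% and 5.71% of the 13172 genes tested were. The median log2 fold change was -0.17 in the members and -0.01 in all genes tested. With total counts in place of TMM factors these medians were -0.33 and -0.17, which is a shift of all genes by over 0.1. The other 82 members were not called. Differences of opposite sign can cancel in the mean. Of the 96 members, 6 were called higher in contHomo vs contWT and lower in T3Homo vs T3WT, against 0.714% of the genes tested. Among these 6, ENSXETG00000021140 was not called in the mean, at -0.20, with separate differences of 2.55 and -2.94. In the averaged contrast without the fold threshold, 23 members were higher and 47 lower at an adjusted p below 0.05. The share of all genes tested at that threshold was not counted, so these numbers are given without a reading.

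**Figure D4:**
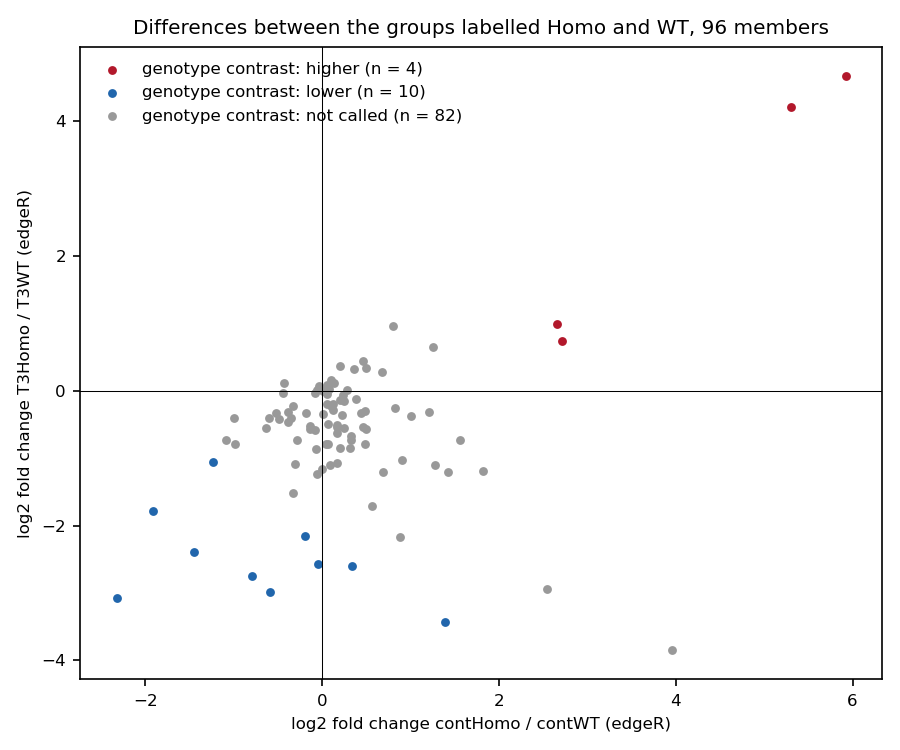
EdgeR log2 fold change of T3Homo over T3WT (vertical) against that of contHomo over contWT (horizontal) for the 96 members, coloured by the call of the contrast averaged over both treatments. The 2 points at the upper right, above 4 on both axes, are neighbouring genes, and the 10 members called lower all lie below 0 on the vertical axis.

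The members called higher in Homo were ENSXETG00000025667 (5.30 ± 0.07, SE, edgeR adjusted p = 2.40e-79), ENSXETG00000025664 (4.76 ± 0.07, SE, edgeR adjusted p = 2.07e-76), ENSXETG00000031873 (1.82 ± 0.25, SE, edgeR adjusted p = 5.60e-10) and ENSXETG00000000954 (1.72 ± 0.01, SE, edgeR adjusted p = 1.68e-105). ENSXETG00000031873 was low throughout, at 3.09 ± 0.124 CPM in T3Homo, 1.53 ± 0.246 in T3WT, 0.383 ± 0.0719 in contHomo and 0.0572 ± 0.0269 in contWT (SD, n = 3 each). It and the other members of the call groups that the rule for named genes does not reach are named after their values were seen.

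ENSXETG00000025667 and ENSXETG00000025664 are direct neighbours on the minus strand of GL172993.1, from 931135 to 932667 and from 939457 to 940502, with 6789 bases and no annotated gene between them. ENSXETG00000025667 had 53.5, 53.6 and 55.0 CPM in T3Homo, 2.12, 2.09 and 2.06 CPM in T3WT, 11.04, 11.6 and 13.0 CPM in contHomo and 0.253, 0.142 and 0.183 CPM in contWT. ENSXETG00000025664 had 51.5, 50.3 and 52.1 CPM in T3Homo, 3.05, 2.58 and 2.59 CPM in T3WT, 12.1, 11.6 and 12.1 CPM in contHomo and 0.0842, 0.370 and 0.457 CPM in contWT. These are the 2 members in which contHomo lay above T3WT. The levels of the genes were close to each other in T3Homo and contHomo, while in T3WT all 3 libraries of ENSXETG00000025664 were above those of ENSXETG00000025667.

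No sequence was compared, so whether the genes are copies that share reads is not known. The handling of such reads is not given in the sources used here, so the level of either gene alone is uncertain and their sum is given. It was 105.3 ± 1.59 CPM in T3Homo, 4.83 ± 0.296 in T3WT, 23.8 ± 1.10 in contHomo and 0.497 ± 0.152 in contWT (SD, n = 3 each). T3Homo was 21.8-fold above T3WT and contHomo 48.0-fold above contWT. Within the Homo and WT libraries the sum still rose, 4.42-fold in T3Homo over contHomo and 9.74-fold in T3WT over contWT, where the 3 contWT libraries held 51 counts in all. On the scale of the rule the T3Homo over contHomo ratio was the larger for both genes, by 0.23 and 0.05, but the fitted interaction was negative, at -1.25 and -1.09. At contWT levels under 0.5 CPM, the 0.5 CPM added by the rule lowers the T3WT over contWT ratio.

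The pair opens a run of 7 genes on the same strand with 3 exons each, up to 1034851. The other 5 have a middle exon of 205 bases, and neither member does. The next gene, ENSXETG00000025663, stood at 384 CPM in T3Homo, 540 in T3WT, 290.0 in contHomo and 406 in contWT, with a log2 fold change of -0.50 between Homo and WT. The gene after it, ENSXETG00000001141, stood at 112, 117, 76.3 and 107 CPM in the same order. Neither of these genes had the excess of the pair in the Homo libraries.

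**Figure D5:**
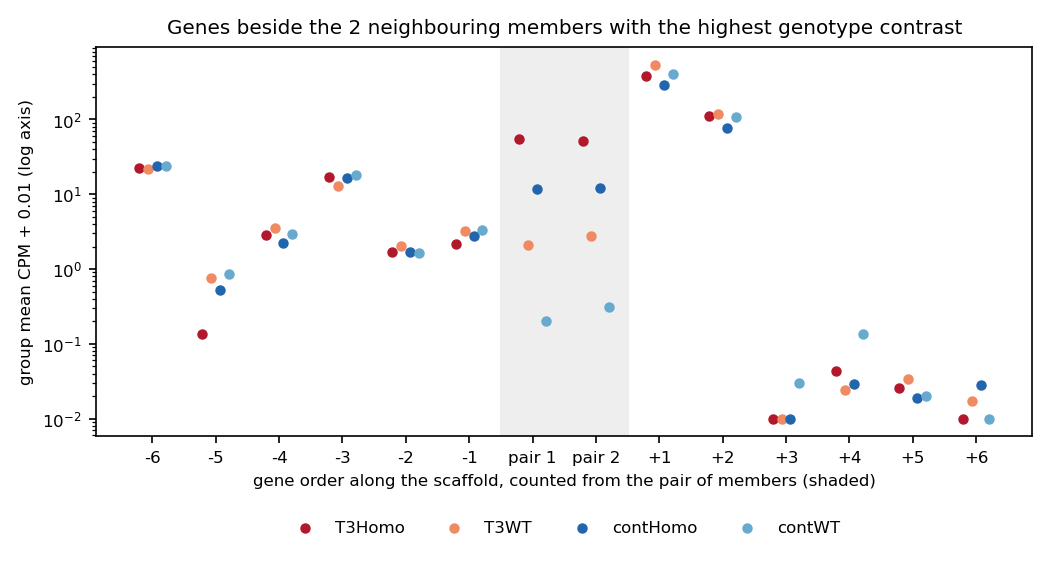
Group mean CPM plus 0.01 (log axis) of the 2 neighbouring members (shaded) and the 6 annotated genes on each side, in their order along scaffold GL172993.1. The pair spreads over more than 2 log units between T3Homo and contWT, and its order of groups, T3Homo, contHomo, T3WT, contWT from high to low, is not that of the genes directly beside it.

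Of the 10 members called lower in Homo, the lowest were ENSXETG00000007922 and ENSXETG00000014366. ENSXETG00000007922, a single-exon gene on the plus strand of GL173084.1 from 1014611 to 1015618, had 2.66, 2.85 and 2.75 CPM in T3Homo and 23.8, 21.8 and 23.0 CPM in T3WT. It had 0, 1 and 1 counts in contHomo and 4, 6 and 1 counts in contWT. Its contrast of -2.70 ± 0.43 (SE, edgeR adjusted p = 4.27e-08) rests on these few counts for the untreated side, and the T3 side alone had -3.07 ± 0.07 (SE). ENSXETG00000014366, with 10 exons on the plus strand of GL172744.1 from 1561640 to 1580438, had 3.04, 2.92 and 2.94 CPM in T3Homo and 14.3, 15.3 and 16.7 CPM in T3WT. It had 1.12, 1.23 and 1.19 CPM in contHomo and 3.54, 2.76 and 3.35 CPM in contWT. Its T3Homo libraries overlapped with contWT, and the contrast was -1.92 ± 0.08 (SE, edgeR adjusted p = 8.53e-39).

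A further 2 of the 10 lie near each other on GL172794.1, with 1 gene between them. ENSXETG00000019051, from 1102087 to 1110130, averaged 16.6 ± 0.895 CPM in T3Homo, 56.7 ± 1.87 in T3WT, 5.66 ± 0.430 in contHomo and 21.3 ± 0.480 in contWT (SD, n = 3 each), a contrast of -1.85 ± 0.04 (SE, edgeR adjusted p = 1.32e-66). ENSXETG00000001688, from 1184978 to 1239160, averaged 2.43 ± 0.193, 19.0 ± 0.213, 0.469 ± 0.0204 and 0.702 ± 0.259 CPM in T3Homo, T3WT, contHomo and contWT (SD, n = 3 each), a contrast of -1.79 ± 0.14 (SE, edgeR adjusted p = 1.54e-20). The gene between them, ENSXETG00000030157, was at 3.89, 3.97, 2.93 and 3.75 CPM in the same groups and had -0.21 (edgeR adjusted p = 0.00935). It was thus lower in Homo too, but far less than the members and below the fold threshold. Without T3, ENSXETG00000001688 was not called lower in contHomo than in contWT (-0.59 ± 0.26, SE, edgeR adjusted p = 0.0502). The other 6 of the 10 had contrasts from -1.77 (ENSXETG00000022372) to -1.02 (ENSXETG00000005916). In all 10 the T3Homo level was below that of T3WT, while in ENSXETG00000014408 and ENSXETG00000005916 the contHomo level was above that of contWT. The contHomo vs contWT log2 fold change was called higher in ENSXETG00000005916 (1.39). It was not called in ENSXETG00000014408 (0.34), ENSXETG00000022372 (-0.79), ENSXETG00000021636 (-0.04) and ENSXETG00000021762 (-0.20). In these members and ENSXETG00000001688, of the separate differences only T3Homo vs T3WT was called lower. ENSXETG00000021636 had 1, 1 and 2 counts in contWT and in contHomo.

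The separate differences share libraries with the rule, so their direction is in part tied to it. In contHomo vs contWT, 14 members were called higher and 5 lower, where 3.11% and 2.87% of all genes tested were. The 14 had log2 fold changes of 1.01 to 5.92, and 9 of them were under 1 CPM in contWT. Among these 9, ENSXETG00000031386 (3.96) had only 3, 1 and 1 counts in contHomo and 0 in each contWT library. It is also among those called lower in T3Homo than in T3WT below. Of the 14, 13 also had a negative interaction call. The interaction holds contHomo minus contWT with a minus sign, so this count is tied to the first call and is given without a reading. Of the 14, 6 were called lower in T3Homo than in T3WT. This makes 6 of all 96 members with both calls, where 0.714% of the genes tested had both. Another 4 of the 96 members were called lower in both comparisons, against 1.75% of the genes tested. By the titles, these 14 would be the members raised by T3 in wild type. In T3Homo vs T3WT, 2 members were called higher and 25 lower, against 2.76% and 13.4% of all genes tested. The members called higher in both comparisons were the neighbours on GL172993.1, which makes 2 of 96 where 0.402% of the genes tested were. By the titles, these would be the 2 members called higher with T3 in both genotypes. Below the 2-fold threshold, ENSXETG00000000954 and ENSXETG00000031873 were also higher in T3Homo than in T3WT, by 0.73 ± 0.01 and 0.98 ± 0.13 on the log2 scale (SE, edgeR adjusted p = 7.43e-67 and 4.38e-11), and both were called higher in contHomo than in contWT.

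The identities of T3Homo and contWT do not depend on which labels are right, but the members were chosen with the other groups as well. TRα(-/-) intestine with T3 had 85 of the 96 members called higher than wild-type intestine without T3, against 5.12% of all genes tested, and the median log2 fold change was 1.59. The rule required T3Homo to lie above contHomo and contWT to lie below T3WT, so this count is in part tied to it. Nothing is read from its share. The 11 members not called had log2 fold changes from -0.37 to 0.99. Of these, 2 were below 0: ENSXETG00000019051 at -0.37 (edgeR adjusted p = 2.24e-11) and ENSXETG00000014366 at -0.13 (edgeR adjusted p = 0.312). In these 2 the low level of the Homo libraries was as large as the rise.

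By structure and position the members can be set beside the other 10581 genes with a group mean of at least 2 CPM. They had a median of 9 exons, against 10, and a median exonic length of 1632 bases, against 1855. A single exon was annotated in 6 of 96 members (6.25%), against 2.53% of the other genes. The median of the highest group mean was 10.9 CPM per kb of exon, against 8.26. The rule used the group means, so this difference is in part tied to it. In contWT the members' median level was 3.34 CPM against 12.6 in the other genes, and in contHomo 4.08 against 12.5. Both ratios of the rule divide by these control levels, so this difference is in part tied to the rule as well. The members lay on 88 scaffolds, 8 of which held 2 members and none more. Apart from the neighbours on GL172993.1, the 1 pair with no gene between was ENSXETG00000012850 and ENSXETG00000019779 on GL172717.1, 249665 bases apart.

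The genes beside a member were called about as often as genes in general. Among the 159 tested neighbours that are no members, the T3WT vs contWT call was made in 21 (13.2%) and the T3Homo vs contHomo call in 4 (2.52%), beside 12.8% and 2.77% of all genes tested. Exons of 1 member, ENSXETG00000016815, overlapped those of another annotated gene, on the same strand, which reached at most 0.0578 CPM in any group against 11.7 CPM for the member. Without gene names, no list of T3 response, cell cycle, matrix, epithelial or other genes could be counted among the members.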

How the data were processed

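The members and lists were chosen with earlier results of these data known. The authors deposited whole-number counts of reads per gene for 19921 genes in 12 libraries, per the file headers, with each gene's exonic length in bases in another column. Alignment with STAR 2.5.3a and counting with featureCounts 1.4.6-p3 are named in the submitters' processing notes. For the build, the annotation, the strand setting and reads that align in several places, nothing is stated in these sources, so reads of antisense or copied genes cannot be told apart. Coordinates come from the deposited table. Of the identifiers, 0 were paired with a symbol in the RefSeq gene table of assembly UCB_Xtro_10.0, so the gene lists and tissue markers were not used, and no sequence could be given.

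Groups follow the column labels, which conflict with the titles for 6 libraries. CPM values are counts scaled to the TMM effective library size over all genes, and group means of CPM define the members. Tests were quasi-likelihood F tests (edgeR 4.0.16, R 4.3.3) on the 13172 genes that passed filterByExpr, with the 4 groups fitted together and p adjusted over those genes by Benjamini-Hochberg. A call needed an adjusted p below 0.05 together with a log2 fold change of 1 or more in size. The scripts were tested on simulated data. The common dispersion was 0.000172, the spread of technical libraries. Libraries of a group differed by more than sampling noise (chi-square per gene 1.26 to 1.88) and were counted separately. Same-numbered libraries of different groups did not deviate together (correlations of -0.02 to 0.04).

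Named genes are the 2 members with the largest smaller rise and the 2 with the highest group mean. To these come the 2 at each end of the contrast between Homo and WT among called members, and of the difference between the rises. The 2 genes just inside and the 2 just outside the rule are also named. Alternatives were RLE factors, total-count scaling, DESeq2 1.42.0, no filter, a replicate block, glmTreat, other settings of the rule and leaving out each library. All 12 count columns were used.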

Additional observations from a re-analysis of the deposited data

Results flagged for a closer look

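The difference between T3Homo vs contHomo and T3WT vs contWT passed the edgeR interaction test, with an adjusted p below 0.05 and a log2 size of 1 or more, in 33 of the 96 members, each time with the smaller change in T3Homo vs contHomo. Over all genes tested, 12.4% were called negative and 3.24% positive. Both contrasts also chose the members, so nothing is read from the count. Among the named members, the interaction log2 fold change was -5.49 for ENSXETG00000021140, -4.82 for ENSXETG00000005916, -1.98 for ENSXETG00000000954, -1.25 for ENSXETG00000025667 and -1.09 for ENSXETG00000025664. For ENSXETG00000025667 and ENSXETG00000025664 the ratio with 0.5 CPM added was larger in T3Homo over contHomo, so the sign depends on the scale. This was so in 5 members, and 2 had the opposite change of sign.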

How the results depend on the processing

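The rule found 92 to 100 members when each library was left out in turn, with at least 89 of the 96 among them, 92 with RLE factors and 132 with total-count scaling. With 1 or 0.1 CPM added in place of 0.5 it found 77 or 140. The counts of called members stayed within 1.5 times the reported ones under RLE factors, total-count scaling, DESeq2, no filter on low counts and the replicate block. Counts already at 96 of 96 could not rise. Over all genes tested, total-count scaling moved some counts further. T3WT vs contWT then had 2995 genes higher in place of 1691. The interaction had 180 genes positive in place of 427 and 2516 negative in place of 1632. T3Homo vs T3WT had 182 genes higher in place of 364 and 2663 lower in place of 1761. With the replicate block, 4 members were higher and 10 lower in the contrast between Homo and WT. Under glmTreat with a null bound of 1 on the log2 scale, counts were smaller in all genes tested and mostly in members. Unchanged were the 4 members higher in the contrast between Homo and WT, where 99 genes were called in place of 168. The 2 members higher in T3Homo vs T3WT also stayed, with 232 genes in place of 364. The interaction still had 0 members positive, with 221 genes in place of 427. The contrast between Homo and WT had 6 members lower in place of 10, and 335 genes in place of 752. The interaction had 18 members negative in place of 33, and 795 genes in place of 1632. ContHomo vs contWT had 6 members higher and 2 lower in place of 14 and 5, and 188 and 167 genes in place of 409 and 378. T3Homo vs contHomo then had 74 members higher in place of 96, and 149 genes in place of 365. T3WT vs contWT had 93 members higher in place of 96, and 1034 genes in place of 1691. T3Homo vs contWT had 77 members higher in place of 85, and 362 genes in place of 674. T3Homo vs T3WT had 19 members lower in place of 25, and 1108 genes in place of 1761. Leaving out single libraries gave 2 to 4 members higher in T3Homo vs T3WT, and the 4 came without T3WT replicate 2. RLE factors, DESeq2 and no filter each gave 3. The 4 members named for the contrast between Homo and WT kept their sign and call in all 18 alternatives each. Levels under about 0.5 CPM rest on a few counts per library, which limits ratios against contWT and contHomo.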
